A study of Mus musculus with 3 samples.

Results

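Integrins, the cell surface receptors that T cells use to hold on to other cells and to matrix, were examined together with their ICAM ligands and the proteins that switch them on, in follicular regulatory T (Tfr) cells with and without Rptor. The members were every probe set annotated to a single gene symbol made of Itga or Itgb plus 1 number or letter (leaving out Itgae, Itgav and Itgb8), and the probe sets of Icam1, Icam2, Icam4, Fermt2, Fermt3, Tln1, Vcl, Rap1a, Rap1b, Rapgef1, Rassf5, Apbb1ip, Selplg and Cd44. The rule gave 76 probe sets of 34 genes, out of 45037 probe sets on the arrays. Of the 34 genes, 29 had a probe set above the filter on dim signals, at an intensity of 35.0, and 5 did not.

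Tfr cells are T cells that restrain the germinal centre reaction inside B cell follicles. They were sorted from lymphocytes of C57BL/6 mice, with spleen as the labelled tissue, at day 8 after OVA immunization, by lineage depletion and a stain for CXCR5, CD25, GITR, CD44 and CD4. The Rptor-null group had 2 arrays, each of 1 pool of 8 CD4-Cre Rptor fl/fl mice, labelled Rptor-/-, and the WT group had 1 array of a pool of 4 wild-type mice. CD4-Cre acts in the whole alpha-beta T cell lineage and not in Tfr cells alone, and the labels do not say whether the WT mice carried a Cre or floxed allele, nor the age of any mice. Rptor encodes raptor, the subunit that defines the kinase complex mTORC1. The single WT array gives no spread of its own, so values are given array by array.

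An integrin is a pair of an alpha and a beta chain. In resting lymphocytes it is folded and binds its ligand weakly. Signals from the T cell receptor or from chemokine receptors load the small GTPase RAP1, which brings talin to the tail of the beta chain, and talin together with kindlin opens the integrin. LFA-1 (Itgal with Itgb2) binds ICAMs and helps T cells to enter lymphoid tissue and to form contacts with B cells, while integrins with the alpha 4 chain bind VCAM-1, fibronectin and MAdCAM-1.

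The stretches just upstream of the gene starts are shown for 3 of the 4 members that passed the test, because those sequences are the promoters of the genes whose transcripts differed. Icam2 was the fourth. They are the 250 bases before the RefSeq gene start, 5′ to 3′ along the gene, on build GRCm38.p6. Itgb5 lies at chr16:33829415-33829664 on the plus strand, Rap1b at chr10:117845975-117846224 on the minus strand and Itgb1 at chr8:128685404-128685653 on the plus strand. Capitals mark matches, on either strand, to GGGCGG (the core bound by SP1) and AGGAAG (a core bound by ETS factors).
Itgb5: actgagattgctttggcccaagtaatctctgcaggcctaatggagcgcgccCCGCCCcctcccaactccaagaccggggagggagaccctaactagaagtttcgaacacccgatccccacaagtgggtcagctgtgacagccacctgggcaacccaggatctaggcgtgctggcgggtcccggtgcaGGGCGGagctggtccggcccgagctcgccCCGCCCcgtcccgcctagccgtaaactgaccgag
Rap1b: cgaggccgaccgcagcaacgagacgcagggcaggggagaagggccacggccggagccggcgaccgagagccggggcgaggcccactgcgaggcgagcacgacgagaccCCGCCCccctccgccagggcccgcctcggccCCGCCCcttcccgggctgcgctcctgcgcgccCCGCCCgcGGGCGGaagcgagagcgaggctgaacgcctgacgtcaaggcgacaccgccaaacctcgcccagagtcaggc
Itgb1: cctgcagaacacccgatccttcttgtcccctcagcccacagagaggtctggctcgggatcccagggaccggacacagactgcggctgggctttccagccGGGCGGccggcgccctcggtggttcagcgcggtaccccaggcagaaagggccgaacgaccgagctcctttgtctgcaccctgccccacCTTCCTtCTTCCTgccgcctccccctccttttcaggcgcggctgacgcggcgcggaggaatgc
The window of Itgb5 held GGGCGG at 3 places and that of Rap1b at 4, both without AGGAAG, and the window of Itgb1 held GGGCGG at 1 place and AGGAAG at 2. The matches did not overlap each other. TGANTCA (the AP-1 site) and TATAAA were also searched and were found in none of the 3 windows. A match describes the letters and shows no bound factor. Among 32851 RefSeq windows of this length, 32.7% held GGGCGG, 29.5% AGGAAG, 6.75% TGANTCA and 12.4% TATAAA. RefSeq promoters were matched for 21 of the 29 genes above the filter.

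Facts of the arrays come before the results. Rptor read 353 and 412 in the Rptor-null pools, against 365 in the WT pool, and whether its probe set lies in the deleted part of the gene is not known, so the value checks nothing about the deletion. The ratio of 3′ to 5′ signal, a measure of RNA integrity, was 1.94 and 2.58 in the Rptor-null arrays and 1.11 in the WT array for Gapdh, and 2.65 and 2.87 against 1.40 for beta-actin. Of 8 regulatory T cell and follicular markers (Foxp3, Il2ra, Ctla4, Tnfrsf18, Ikzf2, Cxcr5, Pdcd1 and Icos) all 8 were above the filter. Their summed intensity was 11380 to 13229 in Rptor-null arrays and 21914 in WT. Of the 8, 5 passed the test as lower, while Foxp3, Il2ra and Ikzf2 did not pass. Cxcr5, Il2ra (CD25), Tnfrsf18 (GITR) and, in the T cell list, Cd4 were stains of the sort, so their levels are tied to the gate. Markers of other cells were present on every array as well: the 8 macrophage markers summed to 29015 and 33667 in Rptor-null arrays and 18200 in WT, and the 6 basophil and mast cell markers to 1858 and 2220 against 1095. The 5 NK cell markers summed to 18342 and 20535 in Rptor-null arrays and 15730 in WT, the 7 neutrophil markers to 19711 and 19993 against 21195, the 6 T cell markers to 21775 and 22006 against 34839, and the 5 dendritic cell markers to 416 and 456 against 607. The median log2 difference of the dendritic list went the other way, at 0.30, with Cd209a the 1 marker past the test, as lower. Most of the NK cell sum was Gzma, which did not pass, at 12303 and 14214 in Rptor-null arrays and 11301 in WT. In that list 2 markers passed as higher and 0 as lower, while Ncr1 lay below WT without passing, at 299 and 285 against 398. The 5 B cell markers summed to 819 and 921 against 1130, the 6 platelet markers to 358 and 380 against 337, and the 6 stromal and endothelial markers to 410 and 458 against 411. The lowest intensity on any array was 5.94, so no marker could read 0. Of the 6 platelet markers 3 were above the filter, as were 3 of the 6 stromal and endothelial markers and 4 of the 5 dendritic cell markers. In RNA from a pool of sorted cells, fewer cells of a type and less RNA per cell cannot be told apart.

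**Figure D1:**
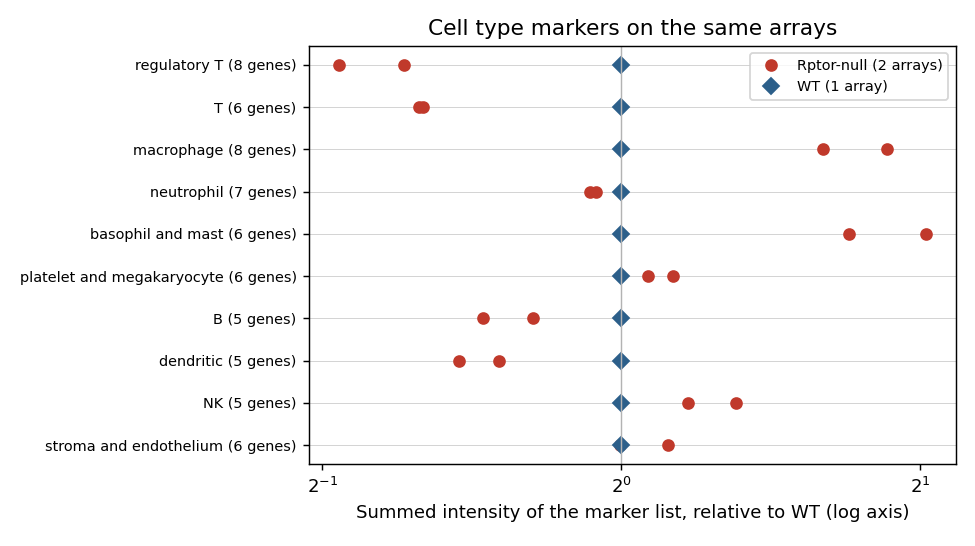
Summed intensity of each marker list in the 2 Rptor-null arrays (red circles) relative to the WT array (blue diamonds, set at 1), on a log axis, with the number of genes measured in each list. Macrophage, basophil, NK cell and platelet lists lay above WT in both Rptor-null arrays, while regulatory T, T, B, neutrophil and dendritic cell lists lay below it.

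Most of the adhesion genes did not pass the test. Among the 29 genes, 2 rose in Rptor-null cells (Itgb5 and Rap1b), 2 fell (Icam2 and Itgb1) and 25 did not pass the test (limma, Benjamini-Hochberg adjusted over all 12721 genes tested, threshold 0.05). Over all genes tested 3.93% were called higher and 11.1% lower, or 15% in either direction, so that the 13.8% called among the members lay near the background and says nothing particular of them. The scaling changed these splits. After quantile normalization 4 of 29 members were called higher and 1 lower, beside 539 and 766 of 12720 genes. With the values as deposited 500 and 1411 of 12721 genes were called. After centring each array on its median, 7 of 29 members were called higher and 2 lower, beside 877 and 1589 of 12721 genes. With either scaling a larger share of members than of all genes was called. Under 2 other settings the share of members was the smaller one. Without a variance trend 0 members were called higher and 1 lower, beside 301 and 769 of all genes. With each probe set tested 1 and 1 were called, beside 318 and 870. Nothing particular of the members is read from these shares. The members were not tested as a set. The median log2 difference was -0.03 over the members and -0.06 over all genes tested. Both Rptor-null arrays lay above WT for 13 members and both below for 11 (44.8% and 37.9%), and over all genes these shares were 32.8% and 48.7%, or 81.5% on the same side. Icam2 was at least 1.5-fold lower in both Rptor-null arrays, a size that 5.18% of all genes reached in this direction and 2.26% in the other.

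**Figure D2:**
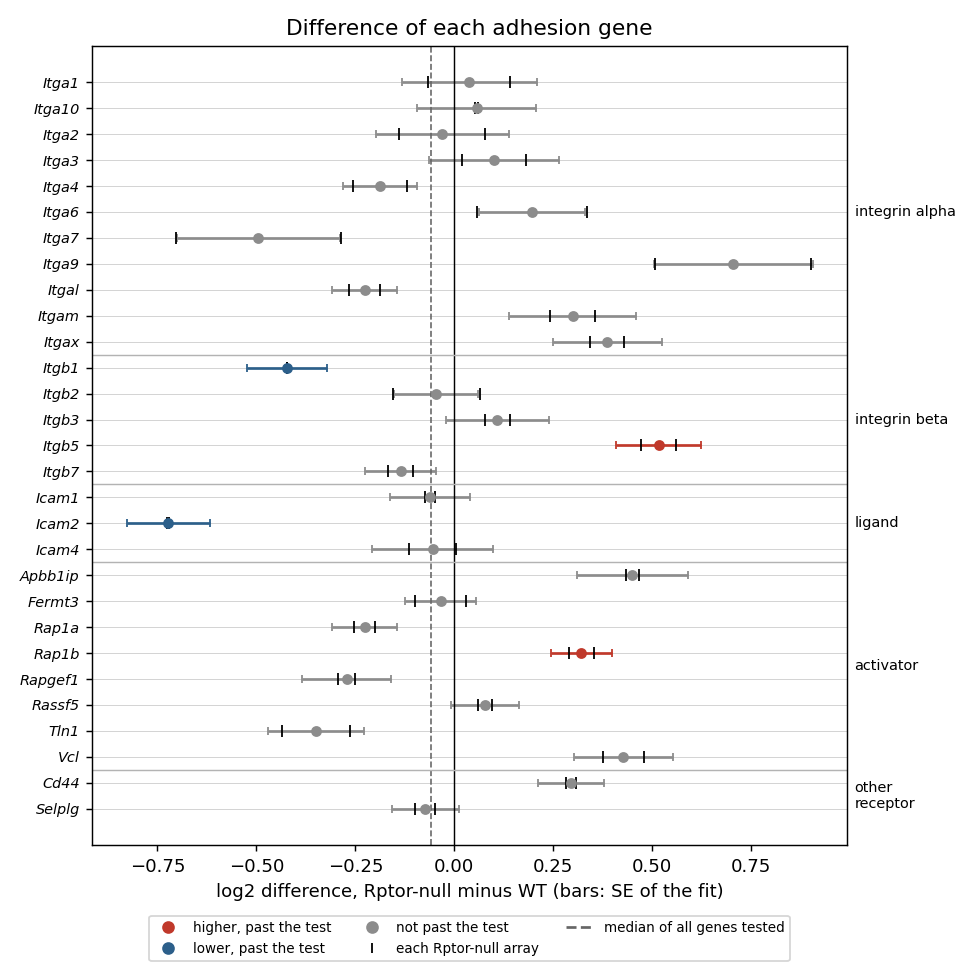
Difference of each of the 29 genes above the filter between Rptor-null and WT, as log2(intensity + 16) of the brightest probe set (dot, with the SE of the fit) and for each Rptor-null array alone (black ticks), by role. Itgb5 and Rap1b (red) passed the test as higher, Icam2 and Itgb1 (blue) as lower, and the dashed line is the median of all genes tested, -0.06.

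Neither chain of LFA-1 passed the test on its brightest probe set. Itgal, its alpha chain, read 6785 and 7171 in Rptor-null arrays and 8162 in WT, and both Rptor-null arrays lay below WT. The log2 difference was -0.23 ± 0.08 (SE; limma adjusted p = 0.113), with a 95% interval, not adjusted for the number of genes, of -0.42 to -0.03. A dimmer Itgal probe set read 118 and 129 in Rptor-null arrays and 230 in WT, and it passed the test when every probe set was tested on its own (limma log2 difference -0.82, adjusted p = 0.0359). With the mean of its 2 probe sets Itgal itself passed (limma log2 difference -0.52, adjusted p = 0.0148). Itgb2, the beta chain of LFA-1 and of all other leukocyte-specific beta 2 integrins, read 5845 and 6819 in Rptor-null arrays and 6513 in WT. Here the WT array lay between the Rptor-null arrays, the interval was -0.29 to 0.20, and the sign turned to 0.0083 after median centring.

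The other partners of Itgb2 mark myeloid cells. Itgam, the CD11b chain, read 87.5 and 96.0 in Rptor-null arrays and 71.5 in WT (log2 difference 0.30 ± 0.16, SE; limma adjusted p = 0.264). Itgax, the CD11c chain, read 316 and 336 in Rptor-null arrays and 245 in WT (log2 difference 0.39 ± 0.14, SE; limma adjusted p = 0.107). Both genes lay above WT in both Rptor-null arrays, and Itgax passed the test after median centring, with an adjusted p = 0.0418. On these arrays 6 of the 8 macrophage markers rose and 0 fell, and the median log2 difference of that list was 0.75. Of the 7 neutrophil markers 0 rose and 0 fell, with a list median of -0.19. The dendritic list had a median of 0.30 with 1 marker lower, and the NK cell list 0.28 with 2 markers higher and Ncr1 below WT without passing. The part of these cell types in the values of Itgam and Itgax was not tested.

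Integrins with the alpha 4 chain take T cells into inflamed tissue and, with beta 7, into the gut. Itga4, the alpha 4 chain, read 3617 and 3974 in Rptor-null arrays and 4319 in WT on its brightest probe set (log2 difference -0.19 ± 0.09, SE; limma adjusted p = 0.23). Its 5 probe sets above the filter were divided, with 3 below WT and 2 above, between -0.38 and 0.43. Itgb7, which pairs with alpha 4 and with alpha E, read 2641 and 2762 in Rptor-null arrays and 2968 in WT. Its Rptor-null arrays were both below WT, by less than the test could call (interval -0.34 to 0.07; limma adjusted p = 0.362). Itgae itself, the alpha E chain, which the rule left out, read 693 and 497 in Rptor-null arrays and 774 in WT (limma adjusted p = 0.21).

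Itgb1, the beta chain shared by most matrix-binding integrins and by the VCAM-1 receptor VLA-4, was lower in Rptor-null cells. It read 991 and 990 in Rptor-null arrays and 1333 in WT, so that the Rptor-null arrays were close to each other and below WT. This was 1.34-fold lower (log2 difference -0.42 ± 0.10, SE; limma adjusted p = 0.0311). A probe set of similar brightness read 921 and 873 in Rptor-null arrays and 1250 in WT, and a dim one read 135 and 148 against 162, all 3 on the same side. The call was lost after quantile normalization (-0.31, adjusted p = 0.104), with the mean of the probe sets, with each probe set tested, and without a variance trend. T cell markers fell on the same arrays (4 of 6 past the test, list median -0.66), and their part in the Itgb1 value was not tested.

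The alpha chains that pair with beta 1 gave no call. Itga6, part of a laminin receptor, read 1261 and 1038 in Rptor-null arrays and 996 in WT on the brightest probe set, and 872 and 580 against 415 on the other. Both probe sets were above WT, but the first Rptor-null array was higher than the second on each, and the limma adjusted p was 0.377 for the brightest. Itga9, a chain of a receptor for osteopontin and VCAM-1 that is better known from neutrophils, muscle and epithelium, read 164 and 121 in Rptor-null arrays and 80.4 in WT. That log2 difference of 0.70 ± 0.20 (SE; limma adjusted p = 0.056) missed the threshold, while the other probe set of the gene read 120 and 116 against 58.2 and passed on its own (limma log2 difference 0.86, adjusted p = 0.0335). Itga9 also passed after median centring, with the mean of the probe sets and with a stricter filter at the 60th percentile, at log2 differences from 0.70 to 0.78.

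Itga7, a laminin-binding chain of muscle, was dim, at 62.5 and 88.9 in Rptor-null arrays and 112 in WT (limma adjusted p = 0.157). Itga1 and Itga2, the collagen-binding chains, gave 97.5 and 82.3 against 86.9 and 65.5 and 54.1 against 61.2, with WT between the Rptor-null arrays for each. Itga3 and Itga10 were above WT in both Rptor-null arrays by at most 0.18 on the log2 scale, and the 3 probe sets of Itga3 were divided. Across the 11 alpha chains tested, 0 passed with limma in either direction (4 had an unadjusted p under 0.05), and 6 lay above WT in both Rptor-null arrays and 3 below. Itga5, Itga8, Itgb4, Itgb6 and Fermt2 had no probe set above the filter, and their 12 probe sets read from 9.33 upward and none above 40.02.

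Itgb5 was the integrin subunit that rose. It is the beta chain of the vitronectin receptor alpha V beta 5, which macrophages use to take up dying cells and which also activates TGF-beta. On the brightest probe set it read 1033 and 1100 in Rptor-null arrays and 741 in WT, and both Rptor-null arrays lay above WT. The level was 1.43-fold higher (log2 difference 0.52 ± 0.11, SE; limma adjusted p = 0.0205). The other 3 probe sets read 576 and 640 against 354, 436 and 432 against 219, and 330 and 441 against 183. All 4 passed when each probe set was tested, with log2 differences from 0.52 to 1.00 and adjusted p from 0.0185 to 0.0427. The brightest, a type of probe set that can match other transcripts, gave the smallest difference. The one that read 330 and 441 against 183 is of the same type and gave the largest, 1.00.

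The same arrays carried more signal for markers of macrophages, cells that express Itgb5: Adgre1 (F4/80) read 1047 and 1252 in Rptor-null arrays and 602 in WT, and Csf1r 12569 and 14904 against 7911. Their part in the rise of Itgb5 was not tested. Without a variance trend the Itgb5 call was lost (adjusted p = 0.0627). Itgav, the alpha partner of Itgb5, which the rule left out, read 1740 and 1846 in Rptor-null arrays and 1535 in WT (limma adjusted p = 0.176), and of its 3 probe sets 1 lay above WT. Itgb3, the other well known partner of alpha V, read 357 and 373 in Rptor-null arrays and 337 in WT (log2 difference 0.11 ± 0.13, SE; limma adjusted p = 0.636).

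**Figure D3:**
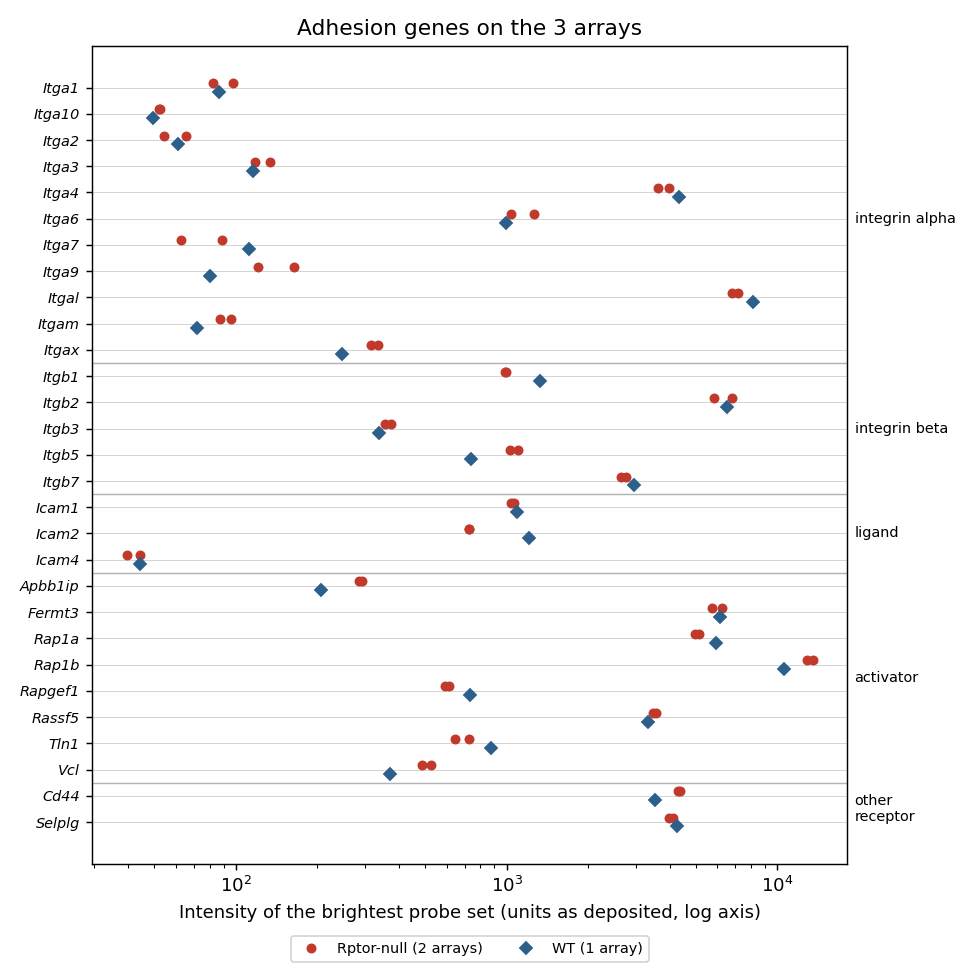
Intensity of the brightest probe set of each of the 29 genes in the 2 Rptor-null arrays (red circles) and the WT array (blue diamonds), on a log axis, by role. The Rptor-null points of Icam2, at 729 and 727, lie on top of each other and left of WT at 1211, whereas for Itgb2 and Fermt3 the WT point lies between the Rptor-null points. Probe sets bind with different strength, so positions along the axis do not rank genes.

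Icam2 was the ligand that fell. ICAM-2 is a ligand of LFA-1 that lymphocytes, platelets and endothelial cells carry without stimulation. It read 729 and 727 in Rptor-null arrays and 1211 in WT, with the Rptor-null arrays almost equal. This was 1.65-fold lower (log2 difference -0.72 ± 0.10, SE; limma adjusted p = 0.00711), and the call held under all 11 alternatives that could be tested, with adjusted p from 0.000452 to 0.0317. Icam2 had 1 probe set, so the alternatives that choose among probe sets could not change its difference. The 3 endothelial markers were divided: Pecam1 read 169 and 147 in Rptor-null arrays and 193 in WT, Kdr 159 and 146 against 112, and Cdh5, below the filter, 22.8 and 31.7 against 26.7. Of 6 T cell markers 4 passed the test as lower and 0 as higher. Cd3g, which passed, read 4657 and 4750 in Rptor-null arrays and 9143 in WT. Cd3e, which did not pass (limma adjusted p = 0.14), read 3575 and 3850 against 4347. The part of endothelial and T cells in the fall of Icam2 was not tested.

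Icam1, the inducible ligand of LFA-1, read 1061 and 1042 in Rptor-null arrays and 1097 in WT (interval -0.30 to 0.18; limma adjusted p = 0.742). The small difference, -0.06 on the log2 scale, turned to 0.06 after quantile normalization. Icam4, a red cell ligand of integrins, read 44.2 and 39.5 in Rptor-null arrays and 44.0 in WT, close to the filter. Of these 3 ICAMs only Icam2 passed, and the difference between Icam2 and Icam1 was not tested.

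The switch that opens integrins showed 1 call. Rap1b, the main RAP1 form of platelets and lymphocytes, read 12940 and 13531 in Rptor-null arrays and 10585 in WT, 1.25-fold higher (log2 difference 0.32 ± 0.08, SE; limma adjusted p = 0.0327). A second probe set read 2363 and 2388 in Rptor-null arrays and 1998 in WT, but the remaining one read 1694 and 1698 against 1809, on the other side. With the mean of the 3 the call was lost (0.16, adjusted p = 0.266), and it was also lost with each probe set tested (adjusted p = 0.0553) and without a variance trend (adjusted p = 0.164). Rap1a, the close paralog, read 5161 and 4975 in Rptor-null arrays and 5927 in WT, both below WT (log2 difference -0.23 ± 0.08, SE; limma adjusted p = 0.114). The paralogs therefore lay on opposite sides of WT, and the difference between them was not tested.

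Around RAP1, Rapgef1, an exchange factor that loads it, read 593 and 612 in Rptor-null arrays and 731 in WT (limma adjusted p = 0.156), and its dimmer probe set lay above WT. Apbb1ip (RIAM), which links RAP1 to talin, read 284 and 292 in Rptor-null arrays and 206 in WT (log2 difference 0.45 ± 0.14, SE; limma adjusted p = 0.0721). It was above WT on both probe sets, and it passed after median centring or with the stricter filter at the 60th percentile. Rassf5 (RAPL), another RAP1 effector that binds the alpha chain of LFA-1, had 2 probe sets that disagreed. The brighter read 3481 and 3565 in Rptor-null arrays and 3337 in WT, and the other 1638 and 1794 against 2348. The brighter can match other transcripts, and without such probe sets Rassf5 passed as lower (limma log2 difference -0.45, adjusted p = 0.0251).

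Of the proteins at the integrin tail, Tln1 (talin-1) read 645 and 728 in Rptor-null arrays and 877 in WT on its brightest probe set, both below WT (log2 difference -0.35 ± 0.12, SE; limma adjusted p = 0.0998). Of its 3 probe sets 1 lay on the other side, at 197 and 161 in Rptor-null arrays and 155 in WT, and the mean of them gave -0.15. Fermt3, the kindlin of blood cells, read 5734 and 6263 in Rptor-null arrays and 6139 in WT, with WT between them. Its other 3 probe sets averaged below WT, and the one that read 831 and 825 in Rptor-null arrays and 1159 in WT passed on its own (limma log2 difference -0.48, adjusted p = 0.0471). The sign of the brightest turned after both other scalings, to 0.0017 and 0.019. Vcl (vinculin), which ties talin to actin, read 487 and 524 in Rptor-null arrays and 372 in WT (log2 difference 0.43 ± 0.13, SE; limma adjusted p = 0.0608). Vcl passed under the stricter filter, both other scalings and the mean of probe sets. It had 1 probe set above the filter, so that mean left its difference at 0.43. Only the limma adjusted p moved, to 0.0449.

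**Figure D4:**
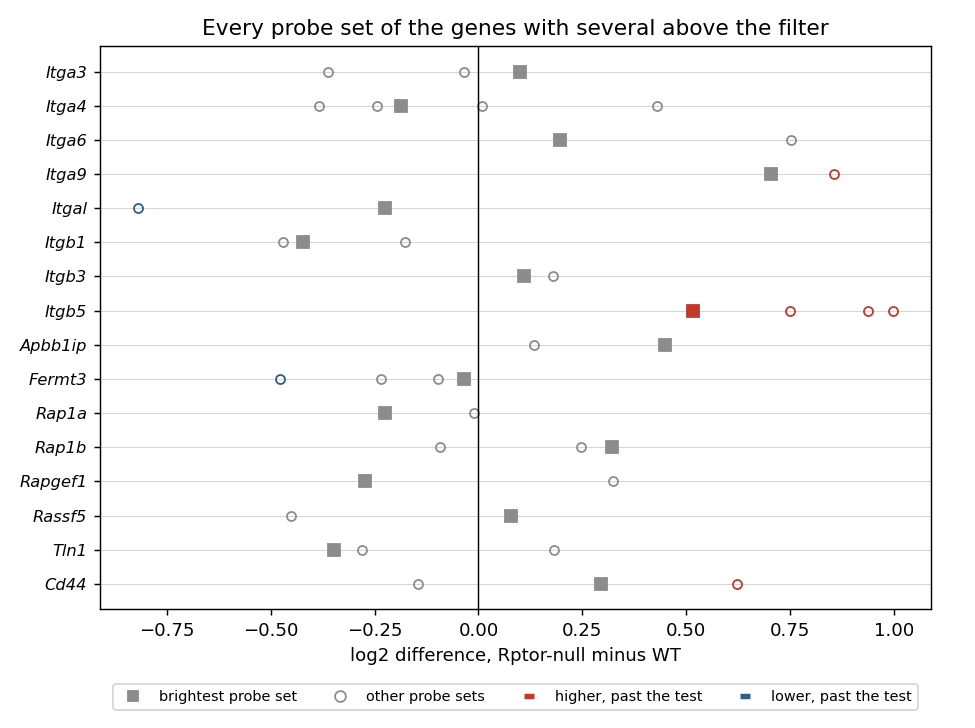
Log2 difference between Rptor-null and WT of every probe set above the filter, for the 16 genes with several (filled squares, the brightest; open circles, the others). Red and blue mark probe sets that passed as higher or lower when each was tested; all 4 of Itgb5 lie to the right of 0, whereas Rap1b, Rassf5, Cd44 and Itga4 have probe sets on both sides.

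The probe sets of a gene often disagreed. Of the 16 genes with several above the filter, 9 had no probe set across WT from the rest (56.2%), and of 5635 such genes on the arrays 2868 had none (50.9%). When each of the 57 probe sets of members above the filter was tested on its own, 6 passed as higher and 3 as lower. The 6 were the 4 of Itgb5 and 1 each of Cd44 and Itga9, and the 3 were those of Icam2, Itgal and Fermt3. Over all 22376 probe sets tested, 2.23% passed as higher and 5.92% as lower.

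Cd44, the hyaluronan receptor that activated T cells carry and a stain of the sort, is tied to the gate, so its level is no free measure. Its brightest probe set read 4383 and 4306 in Rptor-null arrays and 3540 in WT (log2 difference 0.29 ± 0.08, SE; limma adjusted p = 0.0546). A second read 4542 and 4524 in Rptor-null arrays and 2940 in WT and passed on its own (limma log2 difference 0.62, adjusted p = 0.0175), and the dimmest of the 3 read 228 and 216 against 247. Cd44 passed under both other scalings and with the stricter filter. Selplg (PSGL-1), the selectin ligand of T cells, read 3977 and 4118 in Rptor-null arrays and 4258 in WT (interval -0.27 to 0.12; limma adjusted p = 0.621).

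A second list held other genes of integrin function, of which 89 were above the filter: 5 rose, 11 fell and 73 did not pass (5.62% and 12.4%, near the 3.93% and 11.1% of all genes). After quantile normalization 5 of them were higher and 4 lower, and after median centring 10 and 11. Of the 5 genes that rose, 4 were on the list as ligands. Vcam1, the ligand of alpha 4 beta 1, read 6273 and 6323 in Rptor-null arrays and 2742 in WT, 2.29-fold higher (limma adjusted p = 0.00185). Fn1 (fibronectin) was 2.13-fold higher, Lgals3 (galectin-3) 1.63-fold, and Cdh1 (E-cadherin, the ligand of alpha E beta 7) 3.80-fold, at 196 and 349 in Rptor-null arrays and 57.2 in WT. These 4 were among 9 ligands tested, in a list chosen with earlier results of these data known, so their number supports no theme. Among the 3 ligands of the members 0 rose and 1 fell. Vcam1 is also 1 of the 8 macrophage markers, a list of which 6 rose. Whether those cells carried the ligand transcripts was not tested. Rassf1, a relative of Rassf5, was 1.36-fold higher, a call that the mean of its 3 probe sets did not keep (limma log2 difference 0.11, adjusted p = 0.554).

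Of 25 genes tested that link integrins to actin 5 fell (20%), against 11.1% of all genes called lower. Coro1a (coronin-1A), an actin regulator of lymphocytes, read 8752 and 8532 in Rptor-null arrays and 12583 in WT, 1.46-fold lower (limma adjusted p = 0.00681), with all 3 probe sets below WT. Rhoh, a GTPase of blood cells that acts in T cell receptor signalling, was 1.51-fold lower, with 2 of 3 probe sets below WT. The mean of the probe sets did not keep either call (limma log2 difference -0.30, adjusted p = 0.0586 for Coro1a, and -0.18, adjusted p = 0.406 for Rhoh). Was (WASP), Actn4 (an alpha-actinin) and Vasp, which all act on actin filaments, were 1.33-fold, 1.33-fold and 1.31-fold lower. These 3 lost their calls after quantile normalization (limma adjusted p = 0.0992, 0.0707 and 0.0822), which left 2 of the 25. Of all 12720 genes then tested, 766 were called lower. On the same arrays 4 of 6 T cell markers fell and 6 of 8 macrophage markers rose. The share of either cell type in the values of these genes was not tested.

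Among regulators, Sipa1 (SPA-1), which switches RAP1 off, read 599 and 599 in Rptor-null arrays and 863 in WT, 1.43-fold lower (limma adjusted p = 0.0227). Skap1, an adaptor that carries RIAM to the membrane, was 1.33-fold lower, with 2 of 3 probe sets below WT, and the mean of the probe sets did not keep the call (limma log2 difference -0.27, adjusted p = 0.212). Itgb1bp1 (ICAP-1), which binds the beta 1 tail and competes with talin, was 1.51-fold lower. The calls of Sipa1, Skap1 and Itgb1bp1 were lost after quantile normalization (adjusted p = 0.0687, 0.0972 and 0.106). Of the tetraspanins, Cd37 read 836 and 794 in Rptor-null arrays and 1819 in WT, 2.21-fold lower (limma adjusted p = 0.00323), and Cd9 was 1.48-fold lower, a call lost after quantile normalization (adjusted p = 0.0505). Itgb8, the TGF-beta-activating chain that the rule left out, read 60.7 and 58.9 in Rptor-null arrays and 198 in WT, 2.83-fold lower. The 10 brightest genes of the list that did not pass were Cytip, Cd53, Cd47, Msn, Stk4, Fyb, Cd82, Dock2, Evl and Pxn, with log2 differences from -0.34 (Evl) to 0.19 (Msn). With other choices of probe set Dock2 passed as higher (0.72, adjusted p = 0.0215, without cross-matching probe sets) and Msn as lower (-0.64, adjusted p = 0.00893, with the mean of probe sets).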

How the data were processed

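Sorted Tfr cells were profiled on 3 single-colour arrays. The authors deposited 1 linear-scale intensity per probe set, already scaled; the submitters' processing notes list MAS5, and the rest of the processing is not given in the sources used here. Arrays have no read depth, and their number limits the precision. Probe sets were named from the platform annotation (34945 with 1 symbol, 932 with several, 9160 unnamed, 64 controls). All 34 member symbols matched RefSeq.

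Values were converted to log2(intensity + 16), and folds are on that scale, which understates changes of dim genes. A level was the mean of the 2 group means, and probe sets not above its 40th percentile (35.0) were dropped, and the brightest probe set stood for a gene (12721 genes). Rptor-null minus WT was fitted with limma 3.58.1 in R 4.3.3 (lmFit, eBayes with a mean-variance trend), two-sided. The 1 residual degree of freedom (beside 6.39 prior) comes from the Rptor-null arrays, so the WT array is assumed to vary like them. The labels call the Rptor-null pools biological replicates. In 20 simulated sets of 12721 genes the fit recovered 81.5% of log2 changes of 1 and 11.9% of changes of 0.5, while 11.1% of the calls it made were wrong.

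The members and lists were chosen with earlier results of these data known. Named genes were every member, each related gene past the test and the 10 brightest others. The 13 alternatives are given in the closing section.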

Additional observations from a re-analysis of the deposited data

How the results depend on the processing

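No paired analysis was possible because the WT group has 1 array and shares no pairing with the Rptor-null arrays. The counts given here are members called higher, then lower, against 2 and 2. They were 4 and 1 after quantile normalization, 7 higher after median centring, 6 higher with the 60th percentile filter, 4 lower without cross-matching probe sets, 1 and 1 with p-values adjusted over every probe set (the brightest of each gene counted), and 0 and 1 without a variance trend. Of the related genes (5 and 11), 10 were higher after median centring and 8 with the 60th percentile filter. The numbers lower were 4 after quantile normalization, 6 with each probe set tested and 2 without a variance trend. Of all genes (500 and 1411), 877 were higher after median centring and 766 lower after quantile normalization. With each probe set tested 318 and 870 were called, and without a variance trend 301 and 769. The 60th percentile filter left 9465 genes, of which 590 were higher and 1720 lower. Of the 24 members it left, 6 were higher and 2 lower. The members' median of -0.03 became 0.047 without the filter, 0.012 after quantile normalization, 0.023 after median centring and -0.055 without cross-matching probe sets, and it was 0.019 and 0.053 with either Rptor-null array left out. Leaving out an array gave values with no test, and no called gene then changed sign. The call of Icam2 held under the 11 tested alternatives. Those that choose among probe sets could not change its difference, as Icam2 had 1 probe set.

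Under the tested alternatives signs turned for 14 genes, none of them called with the settings of the report. After quantile normalization they were Fermt3 (0.0017), Icam1 (0.060), Fyb (0.00016), Dock2 (0.0075) and Pxn (0.047), and after median centring Fermt3 (0.019), Itga2 (0.023), Itgb2 (0.0083), Fyb (0.0080) and Pxn (0.027). With the mean of probe sets they were Rapgef1 (0.026), Rassf5 (-0.19), Itga3 (-0.098), Cd53 (-0.060), Cd47 (0.23), Msn (-0.64, adjusted p = 0.00893), Fyb (0.065), Dock2 (0.18) and Pxn (0.035). Without cross-matching probe sets they were Rassf5 (-0.45), Itga3 (-0.36), Stk4 (-0.16), Dock2 (0.72, adjusted p = 0.0215) and Pxn (0.096). Leaving out 1 Rptor-null array turned the sign of 7 genes with WT between the 2 arrays: Fermt3, Itga1, Itgb2, Fyb and Pxn without the first, and Itga2 and Icam4 without the second. The causes were not tested. With 1 WT array, a deviation of that array alone would move every difference.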
